A study of Mus musculus with 59 samples.

Results

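Neuronal RNA-binding protein genes are described here in 59 single mouse cells that the submitters call chemical-induced neurons. The 10 genes were taken by their symbols, 10 of the 20689 genes measured: Elavl2, Elavl3, Elavl4, Rbfox1, Rbfox2, Rbfox3, Celf4, Nova1, Nova2 and Ptbp2. Per the labels, the series concerns astrocytes turned into neurons by chemicals inside the living brain, and each cell's content was drawn into a patch pipette from the intact tissue. The labels put every cell into 1 group with an age of 12 weeks. They name no strain, genotype, dose or animal, and no astrocytes, native neurons or untreated cells were analysed here. The 59 cells were therefore treated as 1 sample: differences between cells are given as spreads and counts, and no test or p-value was made.

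Neuronal RNA-binding proteins decide which exons a transcript keeps and how long the finished messenger RNA lasts, and neurons use them to make neuron-specific protein forms. The neuronal Elavl proteins (HuB, HuC and HuD) bind U-rich elements and stabilise transcripts, while Elavl1 (HuR) does this in most cell types. Rbfox, Nova and Ptbp proteins are splicing regulators that turn neuronal exons on or off according to where they bind, and Celf4 binds the 3′ ends of many synaptic messenger RNAs. When a precursor becomes a neuron, Ptbp1 falls and its relative Ptbp2 takes its place.

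The families hold close relatives, so their sequences bear on whether reads can be told apart. The most alike 60-base windows of the coding sequences, from GENCODE release M21 on build GRCm38, are shown 5′ to 3′ in the sense of the transcript, with capitals at positions that differ between genes of the set. Among the 4 Elavl genes 46 positions were identical and 14 differed, and among the 3 Rbfox genes 50 were identical and 10 differed.
Elavl2: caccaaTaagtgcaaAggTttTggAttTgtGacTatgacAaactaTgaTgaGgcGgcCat
Elavl3: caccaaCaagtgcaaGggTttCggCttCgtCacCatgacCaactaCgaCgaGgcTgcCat
Elavl4: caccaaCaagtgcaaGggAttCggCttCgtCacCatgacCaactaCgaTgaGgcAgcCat
Elavl1: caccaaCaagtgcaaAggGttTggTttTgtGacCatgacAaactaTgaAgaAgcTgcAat
Rbfox1: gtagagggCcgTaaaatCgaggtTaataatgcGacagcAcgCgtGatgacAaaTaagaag
Rbfox2: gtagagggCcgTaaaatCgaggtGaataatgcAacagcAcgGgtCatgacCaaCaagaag
Rbfox3: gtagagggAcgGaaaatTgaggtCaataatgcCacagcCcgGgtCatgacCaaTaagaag

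Over each whole set the differing bases recur every few positions of the window. A single pair can share longer stretches, as Elavl3 with Elavl4 and Rbfox1 with Rbfox2 do above. Over the whole coding sequence, identity was 72.8 to 77.3% among Elavl2, Elavl3 and Elavl4, and 64.9 to 67.8% among the Rbfox genes. The longest run shared by any pair was 29 bases, between Elavl3 and Elavl4 and between Rbfox1 and Rbfox2. No stretch of 50 bases in a transcript of any member was found in a transcript of another gene of its family. Outside the family, such stretches made up 30.8% of those of Nova2, 3.13% of Elavl3, 3.0% of Nova1 and 0.2% of Celf4, and none in the other 6 members.

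All 10 are protein-coding genes, and their positions are those of GENCODE M21 on GRCm38. Elavl2 (chr4:91250763-91400785) and Elavl4 (chr4:110203722-110351909) lie on 1 chromosome and Elavl3 (chr9:22015005-22052023) on another. Rbfox1 (chr16:5885355-7411526) spans 1526.2 kb, Rbfox2 (chr15:77078990-77307004) 228.0 kb and Rbfox3 (chr11:118489762-118911597) 421.8 kb. Celf4 is at chr18:25477632-25754157, Nova1 at chr12:46694517-46818929, Nova2 at chr7:18925888-18965319 and Ptbp2 at chr3:119718742-119784466. Exons of Nova2 share 2652 bases (31.7% of its exon bases) with Gm26821, a long non-coding RNA on the opposite strand, and the strand setting of the counting is not given in the sources used here, so reads of this pair may not be separable. Exons of Elavl3 share 256 bases with Gm49318 and those of Nova1 share 310 with Gm33869, both on the same strand, and the other 7 members overlap no exon of another gene. The table used here has no row for any of the 3 partners.

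Levels are FPKM as the authors deposited them, that is, fragments divided by exon length and by the size of the library. Detection here means an FPKM of at least 1. The number of fragments behind each cell was recovered from the spacing of its low values and had a median of 912996, from 29043 to 2950402, and cells had 475 to 10310 genes detected with a median of 3984. Of 12 general neuronal markers, all reached this in 50% of the cells or more, as did 9 of 10 oligodendrocyte markers, 7 of 12 microglia markers and 4 of 12 astrocyte markers. The summed FPKM of the 10 oligodendrocyte markers was 14.6 at the lowest, 2550 at the median and 29200 at the highest. No cell was thus at 0 for the whole list, though cells 20 and 62 reached the threshold in only 1 of the 10 markers. In 4 cells (3, 12, 17 and 26) the recovered total fell midway between whole fragments, as did some of their values. These 4 are called the cells with fractional fragments below. Cell 44 had a whole total, but its Celf4 value came out at 82.5 fragments. The cause was not tested, and results without the 4 cells are given with the alternatives.

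Members were detected in 20.3 to 81.4% of the cells, with a median over the 10 genes of 56.8%, against 11.9% over all genes. Of the 10, 6 were detected in 50% of the cells or more (60.0%), and over all genes the share was 11.7%. The family relatives Elavl1, Celf1, Celf2, Celf3, Celf5, Celf6, Ptbp1 and Ptbp3 had a median of 33.1% of cells, and 2 of these 8 reached 50%. By level the order was Celf4, Elavl3, Rbfox1, Rbfox3, Elavl4, Elavl2, Rbfox2, Ptbp2, Nova1 and Nova2.

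**Figure D1:**
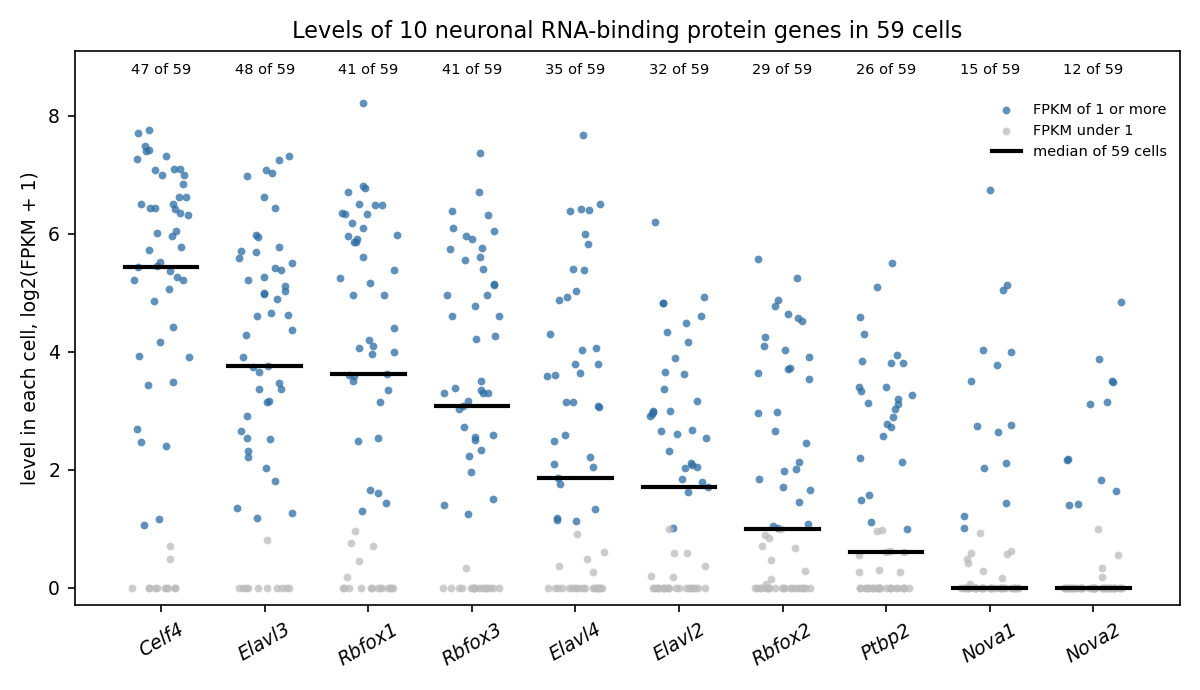
Each point is 1 cell and each column 1 gene, with log2(FPKM + 1) on the vertical axis, blue points at an FPKM of 1 or more, grey points below it, black bars at the median of 59 cells and the number of cells detected above. Celf4 had the highest median and Nova1 and Nova2 had medians at 0, while most genes reached above 5 on this scale in some cells.

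Among the Elavl genes, Elavl3, which encodes HuC, was the most often detected member of all 10. It reached an FPKM of 1 in 48 of 59 cells (81.4%, exact Clopper-Pearson 95% interval 69.1 to 90.3%), with a lowest level of 0, a median of 12.5 and a highest of 158.9 FPKM in cell 6. Elavl4, which encodes HuD, was detected in 35 cells (59.3%, 45.8 to 71.9%), with a lowest level of 0, a median of 2.65 and a highest of 203.4 FPKM in cell 11. Elavl2, which encodes HuB, was detected in 32 cells (54.2%, 40.8 to 67.3%), with a lowest level of 0, a median of 2.26 and a highest of 72.1 FPKM in cell 61. These intervals cover counting error over cells only, not differences between animals.

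The Elavl genes were often found together but not at one another's levels. All 3 were detected in 23 cells (39.0%, 26.6 to 52.6%), exactly 2 in 14 cells, 1 in 18 and none in 4. Of the 18 cells with 1 neuronal Elavl gene, 13 had Elavl3, 3 had Elavl4 and 2 had Elavl2. Where any of the 3 was detected, Elavl3 was the highest in 30 of 55 cells, Elavl4 in 17 and Elavl2 in 8. Across the cells the ranks of Elavl2 and Elavl4 ran together moderately (Spearman's rho 0.44), while Elavl3 had a rho of −0.06 with Elavl2 and 0.00 with Elavl4. Over the 39 cells with at least 500000 fragments these values were 0.38, −0.11 and 0.23.

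Rbfox1 and Rbfox3 shared 1 detection rate and largely the same cells. Rbfox1, a splicing factor of neurons and muscle, was detected in 41 cells (69.5%, 56.1 to 80.8%), with a lowest level of 0, a median of 11.3 and a highest of 294.5 FPKM in cell 39, the highest value of any member. Rbfox3, the gene of the neuronal nuclear antigen NeuN, was also detected in 41 cells, with a lowest level of 0, a median of 7.50 and a highest of 164.2 FPKM in cell 32. Both were detected in 36 cells, with a rho of 0.66. Rbfox2, which is also used outside the nervous system, was detected in 29 cells (49.2%, 35.9 to 62.5%), with a lowest level of 0, a median of 0.981 and a highest of 46.4 FPKM in cell 44.

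All 3 Rbfox genes were detected in 24 cells (40.7%, 28.1 to 54.3%), exactly 2 in 16, 1 in 7 and none in 12. The commonest pair was Rbfox1 with Rbfox3 without Rbfox2, in 12 cells. Rbfox2 was the only Rbfox gene in 1 cell, Rbfox3 in 2 and Rbfox1 in 4. Rbfox1 was the highest of the family in 29 of 47 cells, Rbfox3 in 11 and Rbfox2 in 7. Each of these 47 cells also had at least 1 neuronal Elavl gene.

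Celf4 had the highest median level of the 10. It was detected in 47 cells (79.7%, 67.2 to 89.0%), with a lowest level of 0, a median of 42.0 and a highest of 215.9 FPKM in cell 17. The exon length behind the deposited Celf4 values was 3995 bases, as recovered from the values, against 8583 in GENCODE M21. At the M21 length its median was 19.6 FPKM, still first of the 10, while Rbfox1 (10.6 FPKM) then stood above Elavl3 (9.14 FPKM). Celf2, a broadly used relative, was detected in 39 cells (median 2.93 FPKM), Celf1 in 30 and Celf5 in 22. Celf3 was detected in 13 and Celf6 in 7. Celf4 was thus found in more cells than each of the 5 other Celf genes, and with a median above the quartile range of each (the highest upper quartile was 11.6 FPKM, for Celf1).

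Nova genes were the least detected. Nova1 was detected in 15 cells (25.4%, 15.0 to 38.4%), with a lowest level and a median of 0 and a highest of 105.7 FPKM in cell 48. Nova2 was detected in 12 cells (20.3%, 11.0 to 32.8%), with a lowest level and a median of 0 and a highest of 27.6 FPKM in cell 25. These proteins regulate the splicing of synaptic transcripts, and Nova2 is the form used most in the cortex. Only 6 cells had both (10.2%, 3.82 to 20.8%), 9 had Nova1 alone and 6 Nova2 alone, with a rho of 0.19. All 12 cells with Nova2 also had Rbfox1 and Celf4. In the cells at 0, the limit that a count of 0 allows (3 fragments) was 0.153 to 14.8 FPKM for Nova1 and 0.122 to 12.3 FPKM for Nova2, so in the shallowest cells a level well above the threshold could have gone unseen.

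Ptbp2, the neuronal polypyrimidine tract-binding protein, was detected in 26 cells (44.1%, 31.2 to 57.6%), with a lowest level of 0, a median of 0.527 and a highest of 44.2 FPKM in cell 34. Ptbp1, the form of non-neuronal cells and progenitors, was detected in 17 cells and had a median of 0 and a highest of 40.5 FPKM in cell 15. The pair overlapped: both were detected in 14 cells, Ptbp2 alone in 12, Ptbp1 alone in 3 and neither in 30. The within-cell difference of Ptbp2 minus Ptbp1 on the log2(FPKM + 1) scale had a median of 0.00, with quartiles of 0.00 and 0.89. Ptbp2 was the higher in 26 cells, Ptbp1 in 10, and they were equal in 23. Srrm4, which promotes the productive splicing of Ptbp2, was detected in 9 cells, 7 of them among the 26 with Ptbp2. Exons of Ptbp1 overlap those of 3 genes on the opposite strand, the largest overlap being 437 bases (9.2%) with Gm17134.

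Elavl3 was higher than its general relative in most cells. Elavl1 was detected in 28 cells and had a median of 0.739 and a highest of 67.9 FPKM in cell 62, where none of the 10 members was detected. Elavl3 and Elavl1 were both detected in 23 cells, Elavl3 alone in 25, Elavl1 alone in 5 and neither in 6. Elavl3 minus Elavl1 had a median of 1.79 on the log2(FPKM + 1) scale (quartiles 0.00 and 4.17), above 0 in 40 cells (67.8%, 54.4 to 79.4%), below in 13 and equal in 6. The mean of the 10 members minus the mean of the 8 relatives had a median of 1.08 and was above 0 in 53 cells (89.8%, 79.2 to 96.2%). The sizes depend on the pseudocount: with 0.1 and 10 in place of 1, the median of Elavl3 minus Elavl1 was 2.65 and 0.84, and that of the means 1.82 and 0.54.

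**Figure D2:**
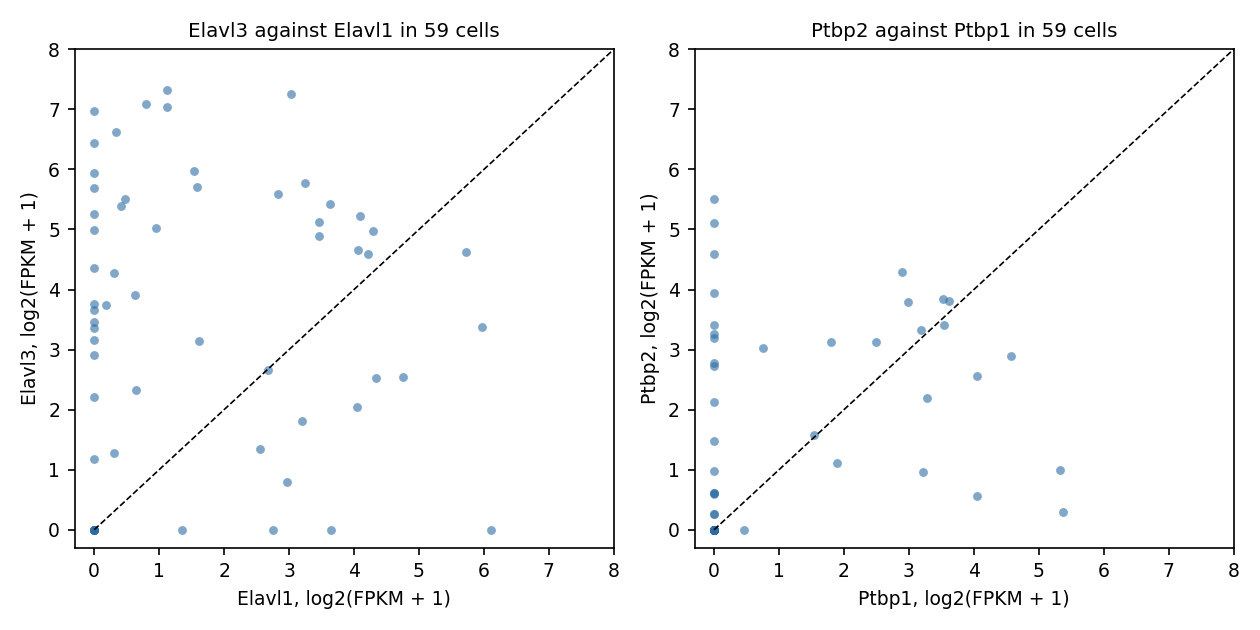
Each point is 1 cell, with the neuronal gene on the vertical and its general relative on the horizontal axis, both as log2(FPKM + 1), and the dashed line marks equal levels. Elavl3 lies above the line in 40 of 59 cells, and Ptbp2 in 26, with many cells of the second panel at 0 for both genes.

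Neighbours in the order of levels did not differ beyond their spread between cells. The largest step was Celf4 minus Elavl3, with a median within-cell difference of 0.95 on the log2(FPKM + 1) scale and quartiles of −0.43 and 3.17. Rbfox1 minus Rbfox3 had a median of 0.11 (quartiles −0.43 and 1.68) and Rbfox3 minus Elavl4 a median of 0.35 (−0.68 and 2.04). For each of the 9 neighbouring pairs the quartile range included 0.

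A cell had a median of 6 of the 10 members (quartiles 4 and 7), with 6 the most frequent number, in 17 cells. At least 5 were detected in 43 cells (72.9%, 59.7 to 83.6%). All 10 were detected in 5 cells (8, 9, 13, 17 and 37), which had 6083 to 10310 genes detected, and none in cells 53 and 62. Elavl3, Celf4, Rbfox1 and Rbfox3 were detected together in 32 cells (54.2%, 40.8 to 67.3%). The number of members had a rho of 0.72 with the number of genes detected and 0.34 with the recovered fragments over the 59 cells, and all of these measures come from the same libraries.

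**Figure D3:**
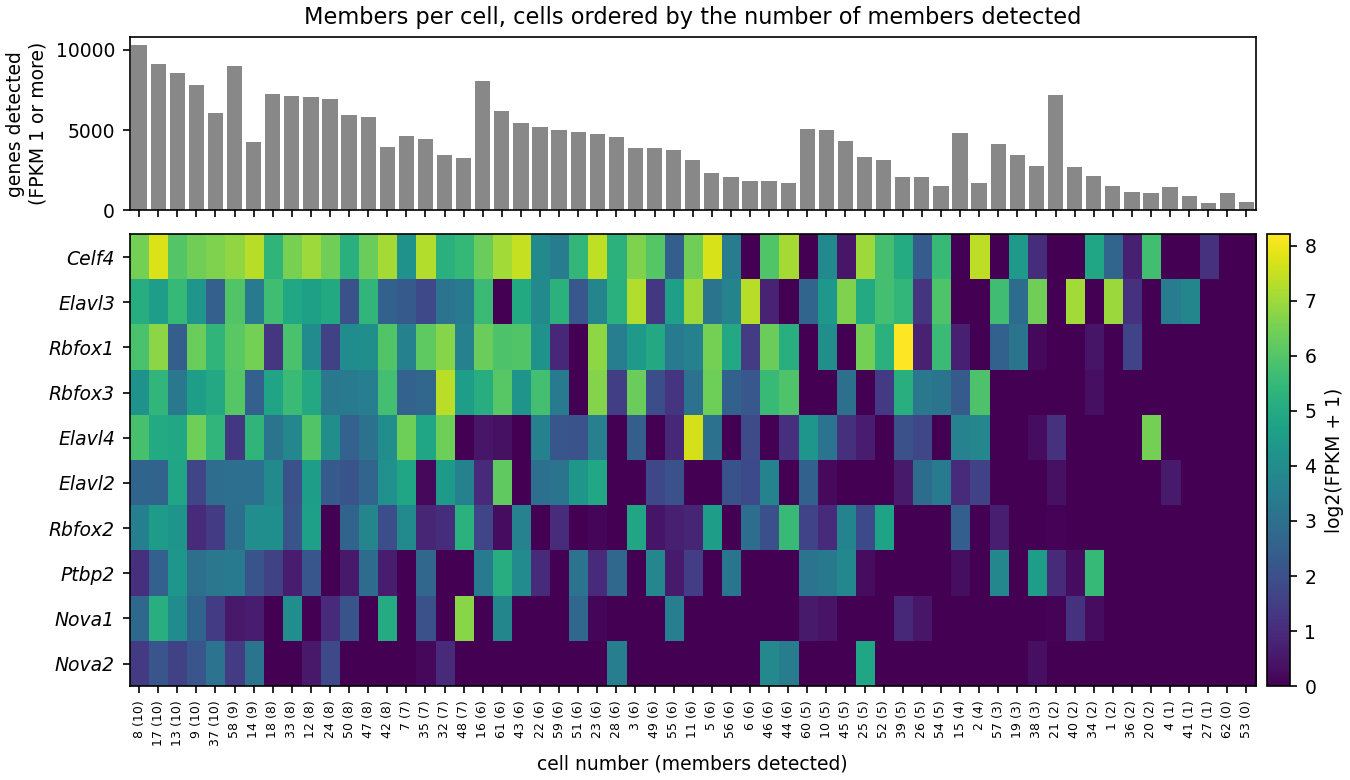
Columns are the 59 cells, ordered by the number of members detected (in brackets after the cell number) and then by genes detected, colours give log2(FPKM + 1) of each member, and grey bars give the genes detected per cell. Celf4 and Elavl3 fill most columns, Nova1 and Nova2 few, and cell 21 has 7219 genes detected but 2 members.

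Some cells with few members were deeply sequenced. Cell 21 had 2934694 recovered fragments and 7219 genes but only 2 members, with 4 of 12 neuronal, 10 of 10 oligodendrocyte and 12 of 12 microglia markers. Cell 40, with 2693730 fragments and 2678 genes, also had 2 members, beside 3 neuronal and 10 oligodendrocyte markers. Cell 53 had 1318871 fragments, 519 genes, no member and no neuronal marker, and 8 oligodendrocyte markers. When the 39 cells with at least 500000 fragments were thinned to that number, the expected number of cells with any fragment moved little: 32.9 of 39 for Elavl3 (33 unthinned), 32.6 for Celf4 (33), 28.7 for Rbfox3 (29) and 19.7 for Nova1 (22).

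Most detected values rested on at least 10 fragments, though less often for Elavl4 than for the others. The median number of fragments in the cells called detected ran from 39 for Elavl4 to 167 for Celf4. Detected cells with under 10 fragments numbered 9 of 35 for Elavl4, 6 of 41 for Rbfox1 and 0 to 5 for the other 8 members. With at least 10 fragments as the threshold, Elavl4 was detected in 44.07% of cells in place of 59.32%, outside its interval. Fragments are amplified reads without molecular identifiers, so they are not independent molecules.

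Over the 45 pairs of members, rho across the cells ran from −0.08 to 0.71 with a median of 0.27. The cells belong to 1 sample, and the values of both genes of a pair come from the same libraries, which differ in depth, so these values are descriptions. The closest pair was Rbfox1 with Celf4, both detected in 38 cells, with a rho of 0.71 over all cells and 0.82 over the 39 deeper ones. Rbfox3 with Celf4 had 0.68 and Rbfox1 with Rbfox3 0.66, so the ranks of these 3 genes ran together. Elavl3, detected with Celf4 in 40 cells, had a rho of only 0.02 with it over all cells and at most 0.23 with any member. Ptbp2 had at most 0.29. Over the 39 deeper cells Elavl3 had 0.24 with Celf4 and at most 0.32, with Rbfox2, and Ptbp2 had at most 0.23.

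**Figure D4:**
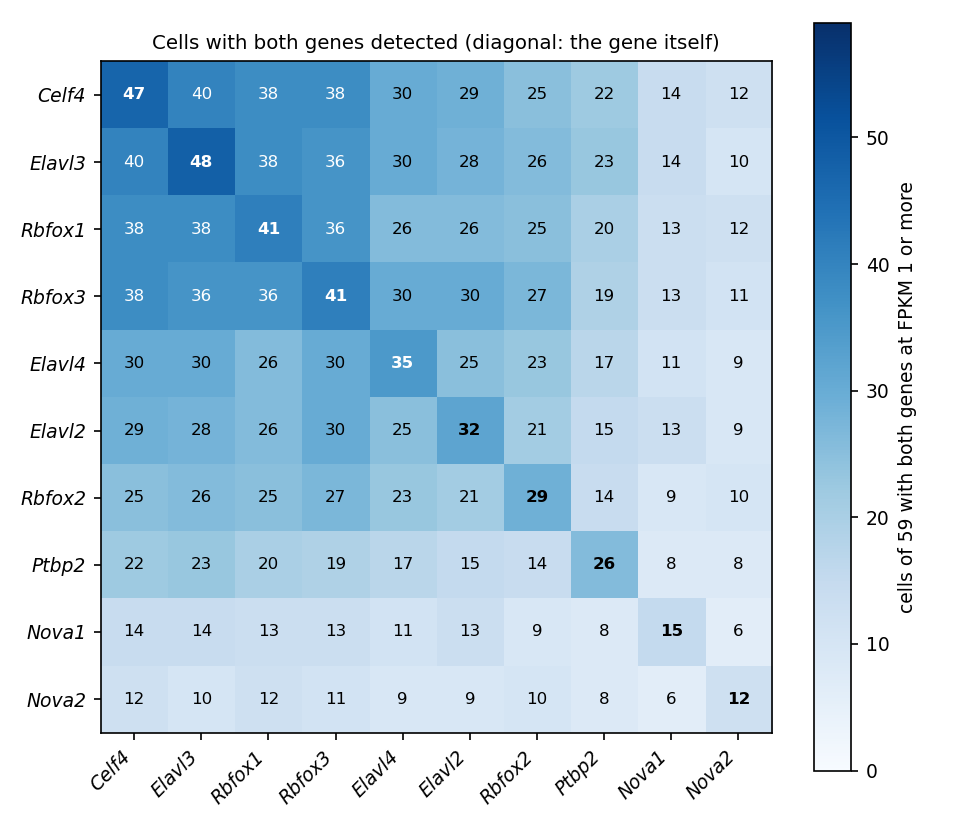
Each square gives the number of the 59 cells in which both genes reached an FPKM of 1, with the gene's own number on the diagonal in bold. Elavl3 with Celf4 is the most frequent pair, in 40 cells, and Nova1 with Nova2 the rarest, in 6.

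The levels of Elavl3 ran with other markers than those of the other Elavl genes, a difference that 1 sample does not allow to be tested. The values for single markers and for subsets of cells, and the counts in the next paragraph, were added after values had been seen. Celf4, Rbfox3 and Rbfox1 had a rho of 0.72, 0.71 and 0.69 with the mean level of the 12 neuronal markers. Elavl4 and Elavl2 had 0.62 and 0.60, and Rbfox2, Nova2 and Nova1 had 0.52, 0.42 and 0.39. The lowest were Ptbp2 with 0.22 and Elavl3 with 0.13. With the 10 oligodendrocyte markers, Elavl3 had a rho of 0.43, Ptbp2 0.28 and Nova1 0.08, and the other 7 members had −0.30 to −0.02. Elavl3 was positively related to 10 of 10 single oligodendrocyte markers (0.14 for the lowest, 0.45 with Cnp, a myelin enzyme) and to 9 of 12 neuronal markers (−0.09 to 0.22). Ptbp2 was also positively related to 10 of 10 oligodendrocyte markers (0.14 to 0.40), and to 11 of 12 neuronal markers (−0.06 to 0.40). Rbfox3 was positively related to none of the 10 oligodendrocyte markers and to all 12 neuronal markers. The value for Elavl3 with the oligodendrocyte list was 0.50 in the 39 cells with at least 500000 fragments, 0.35 in the 46 cells with at least 2000 genes and 0.49 without the 4 cells with fractional fragments. In the same order Elavl3 had 0.25, 0.03 and 0.1 with the neuronal list. Ptbp2 had 0.18, 0.0 and 0.22 with the neuronal and 0.18, 0.16 and 0.31 with the oligodendrocyte list. Which of the 2 genes was lowest with the neuronal list thus depended on the cells used.

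In counts, at least 50% of the oligodendrocyte markers were detected in 43 of the 48 cells with Elavl3 and in 3 of the 11 without it. For Rbfox3 these numbers were 32 of 41 and 14 of 18, and for Ptbp2 24 of 26 and 22 of 33. Many of the 11 cells without Elavl3 had few genes detected. Cells 2, 20, 27, 44, 46, 53 and 62 had 475 to 1855, and of these only cell 53 had at least 50% of the oligodendrocyte markers. Of those with 2174 to 7219 genes, cells 21 and 34 had this share and cells 15 and 61 did not. At least 50% of the neuronal markers were detected in 44 of the 48 cells with Elavl3, against 8 of the 11 without it, and for Rbfox3 in 40 of 41 and 12 of 18. In the 13 cells with Elavl3 as the only neuronal Elavl gene, Elavl3 was 1.27 to 134.6 FPKM, with the highest value in cell 40 (1822 recovered fragments), and 0 to 5 of the 7 members outside the Elavl genes were detected. These cells had 1 to 12 of the 12 neuronal and 3 to 10 of the 10 oligodendrocyte markers. The part of oligodendrocyte RNA in the Elavl3 values was not tested.

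**Figure D5:**
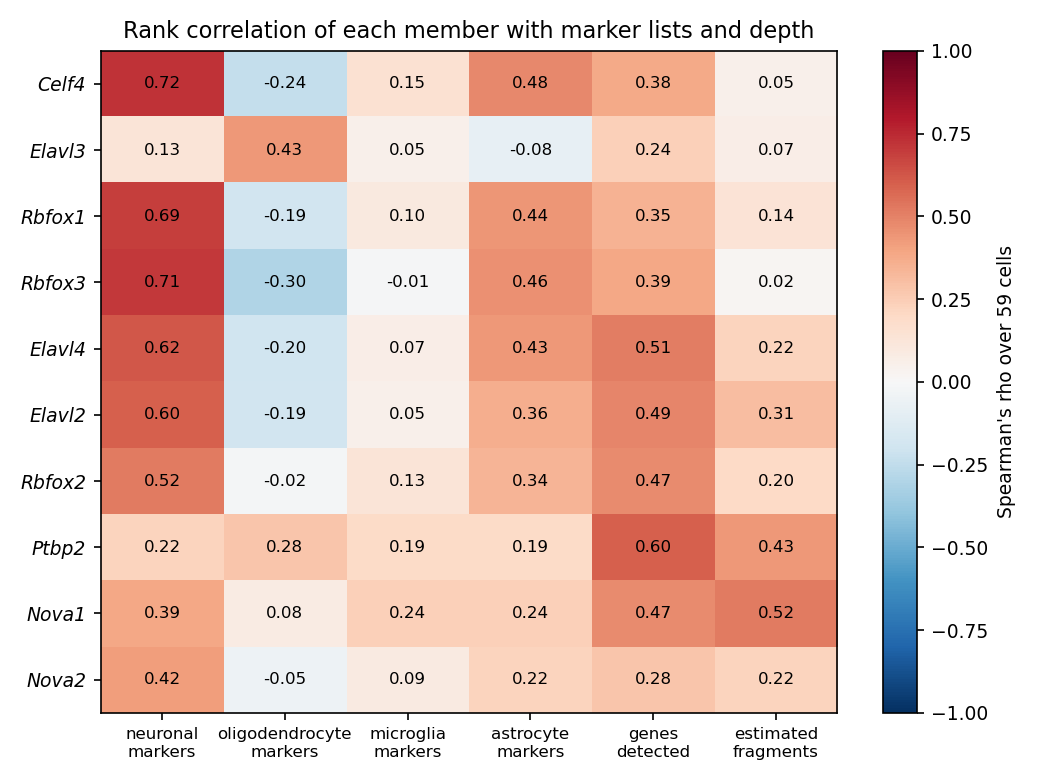
Each square is Spearman's rho over 59 cells between the level of a member (row) and the mean log2(FPKM + 1) of a marker list, the genes detected or the recovered fragments (column), with red above and blue below 0. Elavl3 has 0.13 for neuronal and 0.43 for oligodendrocyte markers, and Ptbp2 has 0.22 and 0.28. The highest value of Ptbp2, 0.60, is with the genes detected.

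Members and glial markers were often detected in the same cell. At least 5 members together with at least 50% of the neuronal markers were detected in 41 cells. With at least 50% of the oligodendrocyte markers the number was 36 (61.0% of cells), with microglia markers 27 (45.8%) and with astrocyte markers 21 (35.6%). The other cells of the 43 with at least 5 members, 7, 16 and 22 in the order of these lists, had less than 50% of the list. In all, 46 cells had at least 50% of the oligodendrocyte, 32 of the microglia and 22 of the astrocyte markers. Rbfox3 and Mbp, the gene of myelin basic protein, were both detected in 39 cells. Mbp itself was detected in 55 of the 59 cells, among them 16 of the 18 without Rbfox3. Whether glial RNA entered the pipette beside that of the patched cell was not tested.

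Other RNA-binding protein genes give a scale for these levels. Of 20 further genes with neuronal roles, 8 were detected in 50% of the cells or more, led by Mbnl2 (a splicing regulator, 48 cells, median 67.8 FPKM), Caprin1 (41 cells) and Mbnl1 (36 cells), with Srrm4 (9 cells) and Khdrbs2 (6 cells) the least detected. General factors were detected more often, 10 of 12 in 50% of the cells or more, with Hnrnpk in 55, Hnrnpa2b1 in 54, and Hnrnpc and Srsf5 in 50 each, and Tardbp (29) and U2af1 (23) lowest. Of 9 genes typical of glia or progenitors, 2 reached 50% of the cells. These were Qk, the quaking gene that controls myelin transcripts (51 cells, median 20.8 FPKM), and Zfp36, which speeds the decay of inflammatory transcripts (39 cells, median 40.4 FPKM). Msi2 followed in 27 cells, and the fetal genes Igf2bp2 (1 cell), Igf2bp3 and Lin28b (3 cells each) were the least detected. Celf4 and Qk were both detected in 41 cells.

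Some transcripts known as targets of these proteins were read beside them. Gap43, a growth cone protein whose transcript HuD stabilises, was detected in 46 cells (median 77.4 FPKM), in 31 of the 35 cells with Elavl4 and in 15 of the 24 without it. Elavl4 also had a rho of 0.62 with the neuronal markers and 0.51 with the genes detected. An effect of HuD on Gap43 was not tested. Dab1 was detected in 27 cells, Scn8a in 19 and Bdnf in 7. Vamp1, a synaptic vesicle protein whose transcript Rbfox1 supports, was detected in 21 of the 41 cells with Rbfox1 and in 4 of the 18 cells without it, a pair of genes singled out with its values known. Gene-level values hold no exon choice, so splicing itself was not measured here.

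Among the 8032 other genes detected in at least 12 cells, those most like the mean level of the 10 members over the 59 cells were Rtn1 (reticulon 1, rho 0.85), Uchl1 (a neuronal ubiquitin hydrolase, 0.84), Map1b (microtubule-associated, 0.82), Nsf (vesicle fusion, 0.82) and Scn2b (a sodium channel subunit, 0.81). They were followed by Calm3 (0.80), Abat (0.79), Gad2 (0.79), Ndrg4 (0.78) and Prkce (0.77). The median rho over the 8032 genes was 0.34, so a positive value was the rule. The names depend on which cells are used: 3 of the 10 were again among the first 10 in the cells with at least 2000 genes, and 2 in those with at least 500000 fragments, where the 10 genes still had a rho of 0.77 to 0.88.

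Taken singly, Rbfox3 and Celf4 were both nearest to Prkce, a protein kinase C gene (0.82 and 0.75), and Rbfox1 to Nsg2 (0.80), a neuronal endosome gene. Elavl3 was nearest to Jam3, a junctional adhesion gene (0.62), Ptbp2 to Lyrm2 (0.68), Elavl2 to Fbxo44 (0.69) and Elavl4 to Ube2g1 (0.69). Rbfox2 was nearest to Cuedc2 (0.63), Nova1 to Dcaf12 (0.68) and Nova2 to Arhgef25 (0.62). Sox10, a transcription factor of the oligodendrocyte lineage, was among the 10 genes nearest to Elavl3 (0.51), as was Nfasc (0.56), both singled out after their values were seen.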

How the data were processed

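Single-cell RNA-seq of 59 mouse cells was analysed. The authors deposited 1 table of FPKM values with 20740 features (51 ERCC spike-ins, 20689 genes). Per the submitters' processing notes, STAR 2.5.3a, featureCounts 1.5.3 and build GRCm38 were used. The sources used here do not state the annotation, the strand setting or how multi-mapped reads were handled. The members and gene lists were chosen with earlier results of these data known.

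From these values, a gene was called detected at an FPKM of 1 or more, and levels were compared as log2(FPKM + 1), which understates changes of low genes. Exon lengths came from GENCODE M21. Fragments per cell were recovered from the spacing of FPKM multiplied by exon length: a median of 73.3% of low values (63.9 to 79.9%) came out whole within 0.02 fragments, so no count model was used. For 5 members the M21 length gave whole fragments, and for the other 5 the length was itself taken from the values. Their fragments came out whole in at least 97.8% of cells with a value, outside the 4 cells with fractional fragments. In 31 cells 1 fragment in a gene of 1 kb exceeds an FPKM of 1. Shares carry exact Clopper-Pearson 95% intervals, and rank correlations are Spearman's with no p. ERCC spike-ins were left out of all gene counts. Doublets were not called, and mixed content of a cell was not tested. Each cell's content was drawn into a patch pipette.

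All 10 members are named, the 3 most and 2 least often detected genes of each further list of RNA-binding or target genes (marker lists are given whole), all 8 relatives, and the 10 genes most like the members' mean among those detected in at least 12 cells. Of 142 listed genes, 137 had a row, and the other 5 were not analysed here. Some genes of the target list are not reported here. Marker lists of precursor, vascular and blood cells and of other organs had medians of 16.1, 3.39, 6.78 and 5.09% of cells per gene. The alternatives were other detection thresholds, scalings, pseudocounts, cell filters, no filter on low genes and, chosen after seeing the data, leaving out 4 cells, thinning and M21 lengths. Coding sequences were aligned with mafft 7.526, and values were computed with Python 3.11.15, numpy 2.4.6, pandas 2.3.3 and scipy 1.17.1. On simulated data of 19358 genes and 59 cells, 199 of 200 planted genes ranked among the first 200. Planted genes and members were simulated with 1 shared factor and all other genes without it. This checks the calculation only and gives no support to the names ranked in the real cells.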

Additional observations from a re-analysis of the deposited data

How the results depend on the processing

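Of 122 alternative values of 14 summaries, 108 stayed within the interval or spread of the reported value and 14 did not. Only the differences between members and relatives could change sign, and none of them did. The other summaries are shares or counts, which cannot be negative. At a threshold of FPKM 5, cells with every Elavl gene were 16.95%, with every Rbfox gene 18.64%, with both Nova genes 0% and with all 10 members 0%. At that threshold at least 5 members were detected in 49.15% of cells, and together with at least 50% of the oligodendrocyte, microglia or astrocyte markers in 35.59, 27.12 and 22.03%. At any FPKM above 0, at least 5 members with the astrocyte markers came to 52.54%. In the 46 cells with at least 2000 genes, no cell lacked all 10 members (0%), at least 5 were detected in 84.78% and with the oligodendrocyte markers in 76.09%. There 3 of the 10 most alike genes were shared, and 2 in cells with at least 500000 fragments. The stricter threshold calls fewer values by construction; other causes were not tested.

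Of 100 alternative shares for single members, 85 stayed within the interval and 15 did not, 6 of them at FPKM 5, where all 10 shares were lower. Another 4 are the thinned shares of Elavl2, Rbfox2, Nova1 and Ptbp2, which count any fragment in 39 deep cells and so differ from the reported shares in more than thinning. Against the unthinned share of the same cells, Nova1 had 50.5% thinned and 56.4% unthinned. The remaining ones were Elavl4 at 10 fragments (44.07%) and Elavl3 in the cells with at least 2000 genes (91.3%). They also include Rbfox2, Nova1 and Ptbp2 at any FPKM above 0 (64.41, 40.68 and 59.32%). Without the 4 cells with fractional fragments, 9 shares were lower and 1 higher, all within their intervals. No paired analysis was possible because there is 1 group of cells. With 1 sample and no control cells, values hold for these cells only, and a gene at 0 in a shallow cell may be missed.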

Other observations

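Along the astrocyte markers, Elavl3 had the lowest value of the 10 members. With the mean level of the 12 astrocyte markers over the 59 cells, Celf4 had a Spearman's rho of 0.48, Rbfox3 0.46, Rbfox1 0.44 and Elavl4 0.43, and the other members except Elavl3 had 0.19 to 0.36. Elavl3 had −0.08. With the 12 microglia markers all 10 members lay between −0.01 for Rbfox3 and 0.24 for Nova1. These are descriptions over cells of 1 sample, and the members' mean also had a rho of 0.63 with the number of genes detected.

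Elavl3 was at 0 in 6 cells with at least 500000 recovered fragments. Cell 61 had 1257626 recovered fragments, 6 members and the highest Elavl2 level (72.1 FPKM), with 10 of 12 neuronal and 3 of 10 oligodendrocyte markers. Cell 15 had 1906400 fragments and 4 members, with 10 neuronal and 4 oligodendrocyte markers. Cells 21, 34 and 53 had 10, 8 and 8 oligodendrocyte and 4, 6 and 0 neuronal markers, and cell 62 had 1 oligodendrocyte and 6 neuronal markers. These cells were singled out after their values were seen.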
